A study of Homo sapiens with 35 samples.

Results

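Chromosome 19 is described here through its 560 bins of 100 kb that had a value in every cell, of 26584 such bins in the whole table and 592 chromosome 19 bins in all. Within it, 102 bins lie in 4 zinc-finger gene clusters and 458 bins lie outside them. The clusters were taken at fixed hg19 positions, counted from 1. They are 19p12 (19900001 to 24500000, 46 bins), 19q13.1 (36500001 to 38500000, 20 bins), a proximal part of 19q13.4 (52500001 to 53700000, 12 bins) and a distal part of 19q13.4 (56500001 to 58900000, 24 bins). The 19p12 window begins where the longest stretch of the chromosome without any contact ends, so that border cannot be taken as independent of the values.

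Contacts with the nuclear lamina were mapped by single-cell DamID in the KBM7 line, derived from a human leukaemia, using its clone 5-5 in diploid (2N) form. All cells carried Dam, a bacterial adenine methylase, fused to lamin B1 (LaminB1), and all were given 0.5 nM Shield1 for 15 h to induce methylation. Sorting took the smallest 2% among cells that showed both Fucci reporters of the cell cycle. The line is 1 clone. The 32 cells analysed form 1 group with no second condition and no cells with unfused Dam, so each comparison sets regions against each other within every cell, and p-values measure the spread between cells of this clone.

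Lamina-associated domains are long, mostly gene-poor and transcriptionally quiet stretches that lie against the inner nuclear membrane in many cells. Chromosome 19 is known as the most gene-dense human chromosome and usually sits in the nuclear interior. Many of its genes encode C2H2 zinc-finger proteins, arranged in clusters that grew by tandem duplication. Most of these proteins carry a KRAB domain, which recruits the corepressor TRIM28 and silences transposable elements, and the clusters themselves are known for the repressive histone mark H3K9me3.

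DamID reads start at GATC, the sequence that Dam methylates and DpnI cuts, so the sequences shown are GATC sites of zinc-finger gene promoters. No read was assigned to any of these sites, and a link between them and contacts was not tested. They come from RefSeq (build GRCh38.p14, not the hg19 of the bins, so they were not assigned to single bins) and cover 250 bases before to 50 after each gene's start. In the RefSeq gene order, 37 protein-coding zinc-finger genes lie between ATP13A1 and UQCRFS1, the 19p12 block, and 29 of them had a promoter entry. Of these 29 promoters, 23 (79.3%) hold a GATC, against 15 of 23 (65.2%) in the 19p13.2 block between ACP5 and MAN2B1, 12 of 27 (44.4%) in the 19q13.1 block between COX7A1 and WDR87, and 41.7% of the 27305 promoters of the table. Over all zinc-finger genes of chromosome 19, 110 of 226 promoters (48.7%) hold one. In 16 of the 29, a GATC lies in the same 11 letters, TGATCACATCT, the most common word of that length around a GATC in these promoters. It was then searched on both strands of all promoters, so its share in the 19p12 block is what chose it. The 19p13.2 and 19q13.1 blocks hold it in no promoter, and 19 promoters of the whole table (0.0696%) hold it, the 16 included. Its GATC starts 81 to 139 bases before the gene start, with a median of 134.5. Windows of 30 bases with GATC in capitals show picked 19p12 promoters, all among the 16 that hold the word. They run from ZNF93, whose protein is known to silence L1 elements, through ZNF91, whose protein silences SVA elements, to ZNF254 at the centromere side. Promoters of the block without the word are not shown. ZNF20 and ZNF44, picked from the 19p13.2 block, lack the word, but the window of ZNF44 ends in the same letters, TCTTCTGTCA, as that of ZNF208.
ZNF93: cagcccagcatgtGATCacatcttctgtca
ZNF85: cagcccagcatctGATCacatcttctgtca
ZNF43: cagcccagcgtctGATCacatctttcattc
ZNF208: cagcccagcatctGATCacatcttctgtca
ZNF91: cagcccagtgtctGATCacatcttctgtca
ZNF254: cagcctagggtgtGATCacatcttctatca
ZNF20: tgtggctagaaccGATCagtccggctttgc
ZNF44: ctcagcactgtgaGATCgcttcttctgtca

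The whole promoter of ZNF208 (GRCh38.p14, chr19:22010894-22011193, minus strand) and, from the 19p13.2 block, that of ZNF44 (chr19:12294834-12295133, minus strand) show that each holds a single GATC in its 300 bases.
ZNF208: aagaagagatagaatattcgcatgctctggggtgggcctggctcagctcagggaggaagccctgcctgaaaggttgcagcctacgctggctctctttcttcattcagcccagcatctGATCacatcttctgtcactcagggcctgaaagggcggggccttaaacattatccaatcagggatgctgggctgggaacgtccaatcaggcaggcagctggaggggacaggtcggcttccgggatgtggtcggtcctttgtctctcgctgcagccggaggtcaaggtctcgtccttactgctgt
ZNF44: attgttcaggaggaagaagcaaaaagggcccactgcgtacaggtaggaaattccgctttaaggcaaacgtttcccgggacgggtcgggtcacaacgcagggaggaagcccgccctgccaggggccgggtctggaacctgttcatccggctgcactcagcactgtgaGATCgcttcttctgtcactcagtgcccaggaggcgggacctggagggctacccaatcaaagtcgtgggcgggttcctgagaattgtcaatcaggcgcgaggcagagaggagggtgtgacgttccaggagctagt

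Each value of the table is an OE, the ratio of observed to expected reads in a bin of 1 cell, and a bin was called in contact where its OE was 1 or more. A call can come from either chromosome copy and from any time in the 15 h. Reads, recovered from the steps of the values, numbered 40279 to 258225 in 29 cells and 985 to 1755 in 3 shallow cells (13, 15 and 17), where the OE of 1 read had a median between 13.7 and 24.9, so that any read there made a contact. Recovered reads are the fewest that fit the values of a bin. A bin with a value above 0 in only 1 cell is always given 1 read, so read counts in sparse bins are lower bounds. Over the genome, a cell had 26.3% ± 8.08 of its bins in contact (SD, n = 32).

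Of the 4 clusters, the 19p12 cluster held most lamina contacts of chromosome 19. It made up 8.21% of the chromosome's used bins and held 319 of its 409 contacts (78.0%). The 50 bins of the long arm within 5 Mb of the centromere (27700001 to 32700000, called the long-arm flank) held 67 contacts (16.4%), and the remaining bins held 23 (5.62%). The 198 bins of the short arm before the 19p12 cluster had no contact in any cell.

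**Figure D1:**
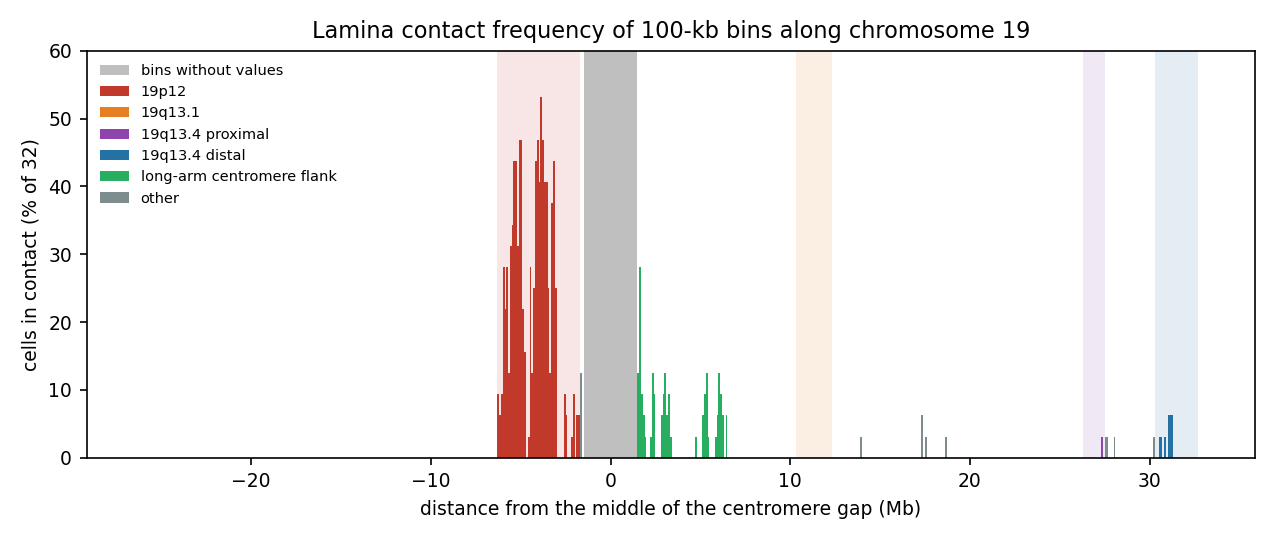
Contact frequency (percent of 32 cells with an OE of at least 1) of each used 100-kb bin of chromosome 19, against the distance in Mb from the middle of the centromere gap, the longest stretch of bins without values; bars and shading are coloured by cluster. Contacts rise to 53.1% in the 19p12 cluster, reach 28.1% in the long-arm flank, and do not exceed 6.25% elsewhere on the long arm.

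In single cells the share of 19p12 bins in contact was 0% at the lowest, 13.0% at the median and 67.4% at the highest, with a mean of 21.7% ± 20.6 (SD, n = 32). The chromosome 19 bins outside all clusters had shares of 0 to 3.71% with a median of 0.218% and a mean of 0.546% ± 0.886. The difference was 21.1 percentage points ± 20.4 (SD), with 19p12 higher in 29 of 32 cells and lower in 2 (sign-flip permutation test, adjusted p = 2e-05 over 4 clusters). The 2 ranges overlapped, since some cells had few or no contacts in 19p12. With the borders of all 4 clusters moved inward or outward by 0.5 Mb, which also changes the bins outside them, the difference was 24.2 and 18.5 points (adjusted p = 1.33e-05 and 2e-05).

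**Figure D2:**
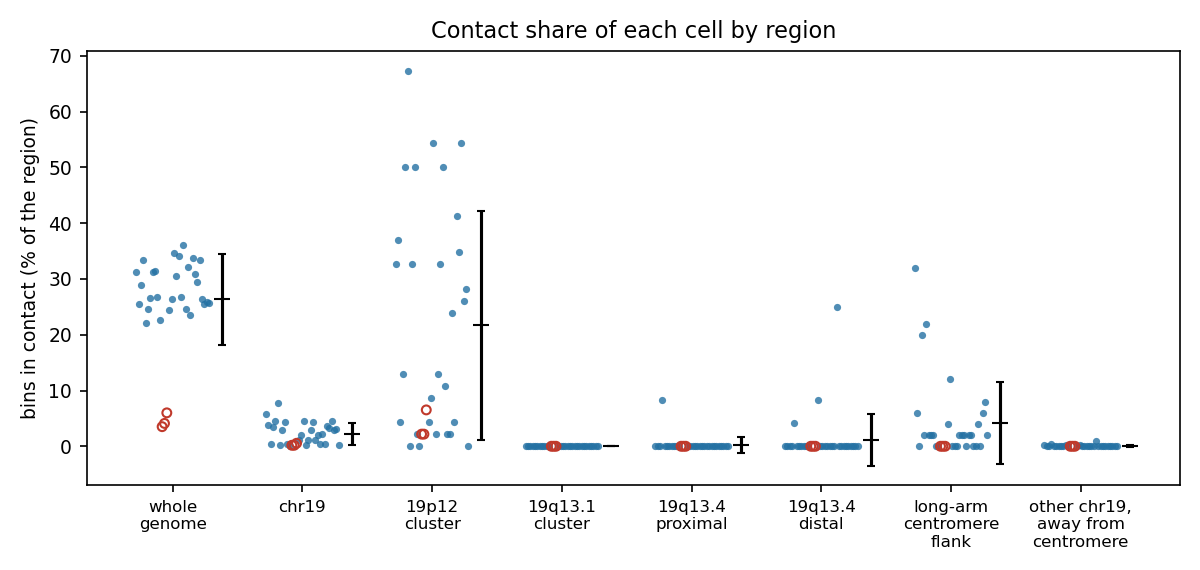
Percent of bins in contact in each of the 32 cells, by region; filled points are the 29 cells with 40279 reads or more, open circles the 3 shallow cells, and the bar to the right of each group is the mean with its SD. The 19p12 cluster spreads from 0 to 67.4%, while the 19q13.1 cluster is at 0 in every cell.

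The 19p12 bins also had few expected reads, a property of the bin that enters every OE. These were 0.144 to 2.89 per 100000 reads of a cell with a median of 1.74, against a median of 3.68 in the bins outside the clusters, and all 46 bins fell in the lowest 10% of the genome (under 2.91), so no value could be had without such bins. Reads that are not divided by the expectation were also higher in 19p12. It held 2325 reads, 50.5 per bin, against 5.19 per bin in the 458 bins outside the clusters, a ratio of 9.74. Per 100000 reads of a cell this was 1.34 ± 1.29 reads per bin against 0.103 ± 0.0974 (SD, n = 32), higher in 29 of 32 cells (adjusted p = 4e-05 by sign-flip permutation). Recovered reads are lower bounds where few cells had reads, as in many bins outside the clusters. These gaps in reads may therefore be too large. Against the 72 bins outside the clusters with expected reads in the same range, 19p12 was higher by 20.4 points (21.7% against 1.26%, adjusted p = 2e-05 by sign-flip permutation). Expected reads were worked out from the recovered reads, so they come out too low where the latter are too few. The bin at 34100001, for example, had 2.28 expected reads from 1 read in 1 cell. Some bins may thus be in this range because they hold few reads, so this set is not a clean match. Of the 319 contacts in 19p12, 20 rested on 1 read, 5 of them in the shallow cells.

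Contacts did not fill the 19p12 cluster evenly. Of its 46 bins, 24 had a contact frequency of 20% or more, 10 had contacts in 1 to 3 cells and 8 in none. The 24 bins included 4 stretches of more than 1 bin. The first, 20200001 to 20500000, had a mean contact frequency of 26.0% ± 30.2 (SD over 32 cells) and at least 1 contact in 17 cells. The second, 20600001 to 21400000, reached 37.5% ± 37.7, with contacts in 20 cells. The third, 21900001 to 22800000, was the longest at 0.9 Mb and had 40.3% ± 36.2, with contacts in 25 cells. The last, 22900001 to 23200000, had 35.4% ± 36.8, with contacts in 18 cells. Between the second and the third, the bin at 21500001 was in contact in no cell and its neighbour at 21600001 in 1. The side towards the centromere was low, with no contact from 23200001 to 23600000 and at most 3 cells in any bin from there to 24500000.

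The bin most often in contact lay at 22300001 to 22400000, with contacts in 17 of 32 cells (53.1%). Over the 32 cells its OE was 0 at the lowest, 1.04 at the median and 31.3 at the highest, in a shallow cell. The highest among the 29 deeper cells was 6.60. It was called in contact more often than the cells' own contact shares give, 8.42 cells per bin (exact Poisson-binomial test, Benjamini-Hochberg adjusted p = 0.00236 over 26584 bins). The bins at 21100001, 21200001, 22100001 and 22400001, with contacts in 15 cells each and median OEs over the 32 cells of 0.947, 0.702, 0.645 and 0.630, were the others called (adjusted p = 0.0212 for each by the same exact test). All 5 lie in 19p12. They are 0.893% of the chromosome 19 bins, whereas 30.3% of all bins of the table were called above expectation. Their number was 11 with contacts taken from an OE of 0.5 on, 1 with an OE of 2 as the limit, 3 with any read counted, 2 without the 8 sparsest cells and 9 without cell 26, so single bins near the limit of 15 cells carry this count. In the other direction, 525 chromosome 19 bins (93.8%) were called in contact less often than expected, against 54.5% of all bins. Among them were 18 of the 46 bins of 19p12 (39.1%), 44 of the 50 bins of the long-arm flank (88.0%) and all 56 bins of the other 3 clusters.

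The same cells tended to have contacts in several of the 19p12 stretches. All 20 cells with a contact in the second stretch had one in the third as well, 5 cells had a contact in the third alone of the 2, and 7 had none in either. Over the 29 deeper cells, the shares of these 2 stretches had a Pearson's r of 0.910 (Spearman's rho 0.905). The lowest r was 0.342 (rho 0.343), for the stretches starting at 20200001 and 22900001. These are farthest apart but also the shortest of the 4, with 3 bins each. The r did not simply fall with distance. It was 0.638 between the starts 20200001 and 20600001 and 0.748 between 21900001 and 22900001. Both pairs lie closer together than the pair with 0.910. The remaining pairs had 0.561 (20200001 and 21900001) and 0.718 (20600001 and 22900001). These values are descriptions, since both stretches of a cell share its library, depth and noise.

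Cells differed widely in how much of 19p12 they had in contact. At the top, cell 6 had 31 of the 46 bins in contact, with an uninterrupted run of 1.6 Mb (21600001 to 23200000), and 6 of the 32 cells had 50% or more. At the other end, cells 7, 11 and 35, with 122629, 83453 and 117698 reads, had none, and 11 of the 29 deeper cells had under 10%. The longest run in a cell with a contact there was 0.1 to 1.6 Mb with a median of 0.2 Mb, and 3 cells reached 1 Mb. In 15 of 32 cells the 19p12 share was above the share of that cell's whole genome. The 19p12 share went only weakly with the genome share over the 29 deeper cells (Pearson's r 0.158, Spearman's rho 0.210) and with log10 reads (r 0.151, rho 0.227), given as descriptions over cells that each are 1 library.

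**Figure D3:**
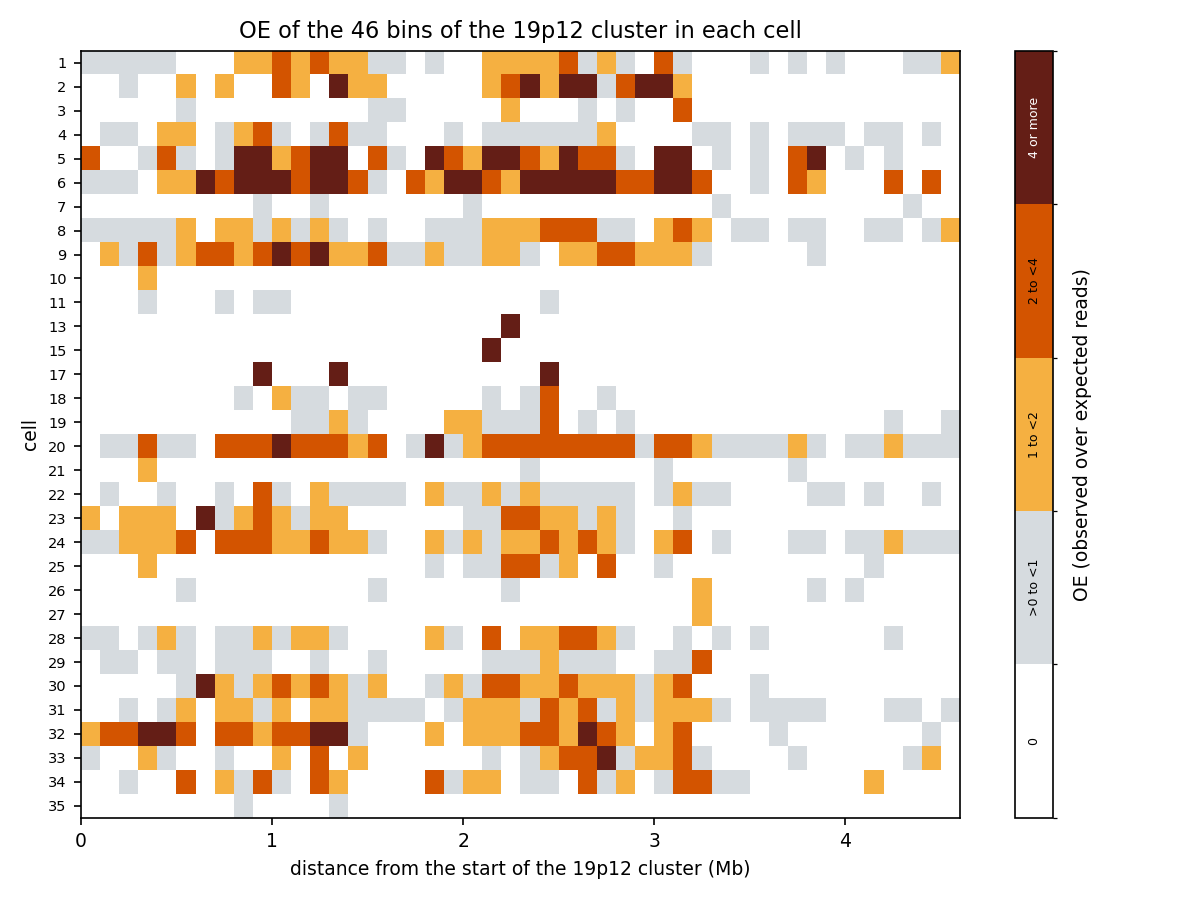
OE of each of the 46 bins of the 19p12 cluster (columns, by distance in Mb from the start of the cluster) in each of the 32 cells (rows, by cell number), in 5 classes from 0 (white) through values below 1 (grey) to contacts (orange to dark red). Cells such as 6 and 20 are in contact over much of the cluster, cells 7, 11 and 35 have no contact, and the shallow cells 13, 15 and 17 have 1 to 3 isolated bins.

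**Figure D4:**
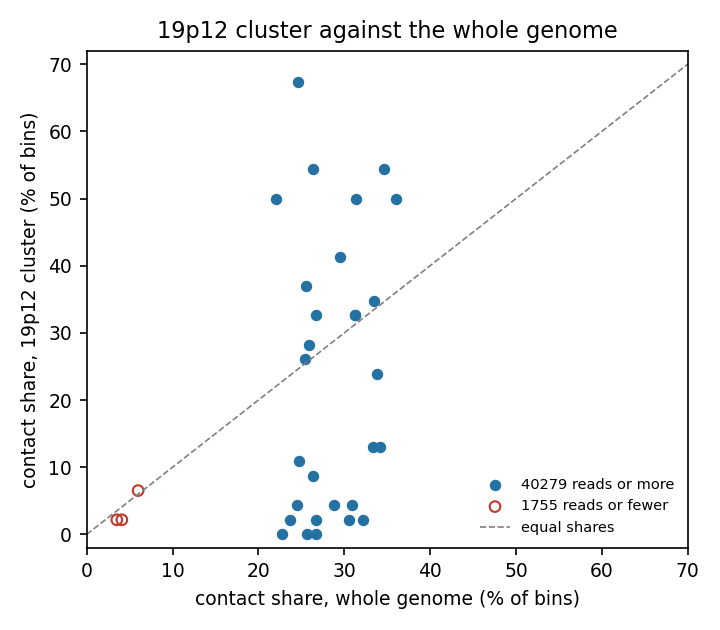
Percent of 19p12 bins in contact against percent of all used bins of the genome in contact, 1 point per cell (n = 32); open circles are the 3 shallow cells and the dashed line marks equal shares. The 29 deeper cells lie between 22.1 and 36.0% for the genome but between 0 and 67.4% for 19p12.

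Values in 19p12 were spread around the limit of a contact. Of its 1472 values, 879 were 0, 274 lay above 0 and under 1, and 319 were 1 or more. Just below the limit, 51 values lay from 0.8 to 1, and just above it, 52 lay from 1 to 1.25. In the 29 deeper cells the median OE of a 19p12 contact was 1.97, against 2.51 for all contacts of the table.

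The long arm beside the centromere was in contact less often than 19p12 on the other side. Its first 5 Mb begin a gene-poor part of the chromosome, and in the RefSeq order its first protein-coding genes are UQCRFS1, an electron-carrying subunit of respiratory complex III, and VSTM2B. The flank had a share of 0 to 32.0% per cell with a median of 2.00% and a mean of 4.19% ± 7.40 (SD, n = 32), and 19 cells had a contact in it. 19p12 exceeded it by 17.5 points ± 19.9, in 27 of 32 cells (p = 2e-05 by sign-flip permutation), although the ranges overlapped. Cell 1 stood highest in the flank with 16 of 50 bins and had 15 bins of 19p12 in contact. Of the 19 cells with a contact in the flank, 17 also had one in 19p12, and 12 cells had contacts in 19p12 and none in the flank. A contact in 19p12 was found in 29 of all 32 cells, so the 17 of 19 is near that share. Over the 29 deeper cells, the shares of 19p12 and the flank had a Pearson's r of 0.226 (Spearman's rho 0.244), given as a description. The bin at 27800001 was in contact in 9 cells (28.1%), with OEs from 1.15 to 6.33 in those cells, but it held only 13 reads in all. Every other bin of the flank was in contact in at most 4 cells.

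The other 3 clusters were rarely in contact. The 19q13.1 cluster had no contact in any bin or cell, with at least 44 reads in all and a mean OE of 0.0129 ± 0.0192 (SD, n = 32). For a single bin, 0 of 32 cells allows a frequency of up to about 9.38%. This approximate limit is 3 over the number of cells, and it counts the 3 shallow cells, which had few reads. The cluster was below the bins outside the clusters by 0.546 points, in 22 of 32 cells with the other 10 at 0 on both sides (sign-flip permutation test, adjusted p = 2e-05). With the cluster at 0 in every cell, no difference could be above 0. This p therefore reflects only how many cells had a contact outside the clusters. With the centromere flanks left out of those bins, the difference was -0.0696 points and did not pass (adjusted p = 0.126), and it did not pass with reads thinned to 40279 per cell (adjusted p = 0.325). The proximal 19q13.4 cluster had 1 contact, in cell 4 at 53500001, with an OE of 1.04 on 8 reads. Its share of 0.260% ± 1.47 did not separate from the bins outside the clusters (-0.285 points, sign-flip permutation test, adjusted p = 0.375).

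The distal 19q13.4 cluster had 9 contacts in 3 cells, 6 of them in cell 26. The region is known to hold PEG3 and ZIM2, a pair of imprinted zinc-finger genes expressed from the paternal copy. Its share of 1.17% ± 4.64 did not separate from the bins outside the clusters (0.626 points, sign-flip permutation test, adjusted p = 0.625), and without cell 26 the difference was -0.132 points. The call depended on the measure: it passed as higher with any read counted (8.47 points, adjusted p = 0.00318) and as lower among bins of like expected reads (-1.26 points, adjusted p = 2e-05), where this cluster had no contact (both by sign-flip permutation). At 0 in every cell the cluster could not be higher there. That p reflects only how many cells had a contact in the bins it was set against. Its most contacted bins, at 57200001, 57300001 and 57400001, were in contact in 2 cells each, and the highest OE there was 2.47, on 20 reads of cell 26. The 3 clusters together had a share of 0.558% ± 2.00, against 0.0696% ± 0.201 in the 404 bins outside the clusters and more than 5 Mb from the centromere, a difference of 0.488 points (higher in 4 cells, lower in 3 and equal in 25) that did not pass (sign-flip permutation test, p = 0.127). It did pass in values with a lower limit. The difference was 1.74 points with an OE limit of 0.5 (p = 0.00106), 4.74 points with any read counted (p = 0.00245) and 0.0245 in mean OE (0.0418 against 0.0173, higher in 21 of 32 cells, p = 0.00039 by the same test).

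The clusters differed among themselves. In 28 of 32 cells 19p12 exceeded the other 3 together, by a mean of 21.1 points ± 21.0 (p = 1e-05 by sign-flip permutation, the lowest value possible with 100000 resamples). All 4 together had a share of 10.1% ± 9.13 against 0.546% outside (9.53 points, p = 1e-05), but without 19p12 the difference was 0.0122 points (p = 0.983). Zinc-finger genes of chromosome 19 also lie in 19p13.2 and 19q13.31, which the clusters leave out. The bins from 9 to 10 Mb and from 11 to 13 Mb, taken as the approximate places of the 19p13.2 genes, had 0 contacts in 30 bins, on at least 95 and 40 reads. The bins from 44 to 45 Mb, for 19q13.31, had 1 contact in 10 bins.

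Away from the centromere, the rest of the chromosome had few and scattered contacts. More than 5 Mb from it, 19 contacts were found in 15 bins and 7 cells, and 10 of the 19 were in cell 26. Their OE was 1.01 to 2.47, on 1 to 20 reads. Cell 26 had 1 of its contacts at 44800001, on 10 reads with an OE of 1.96, 1 at 43700001 on a single recovered read, and the others from 54200001 on. The same cell had 1 bin of 19p12 in contact and none in the long-arm flank. Cell 4 had neighbouring contacts at 53500001, 53700001 and 53800001, with OEs of 1.04, 1.66 and 1.13. The contacts at 43500001 (cells 1 and 19) and 43700001 rested on 1 recovered read each, which is a lower bound.

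No cell had a contact in 481 of the 560 bins (85.9%), and 68 of these had no read at all. The share of bins without any contact was 41.1% outside chromosome 19, 79.2% on chromosome 17 and 92.6% on the segment named 22:9. On chromosome 19, the longest stretch without contact outside the short arm ran from 44900001 to 53500000 (8.6 Mb, 253 reads). It was followed by 32700001 to 40100000 (7.4 Mb, 181 reads), which holds the whole 19q13.1 cluster, 40200001 to 43500000 (3.3 Mb, 88 reads) and 54300001 to 56400000 (2.1 Mb, 98 reads). The longest of all, 200001 to 19900000 (19.7 Mb), held 551 reads. The read counts of these stretches are lower bounds. Mean OE in these 5 stretches was 0.0131 to 0.0218.

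Chromosome 19 was set against chromosome 17 and against the segment that the table names 22:9, both also low in contacts. They were picked as most like chromosome 19 in contact share, the same measure that is then compared. Its own share was 2.28% ± 1.97 (0 to 7.68%, median 2.05%, n = 32). Chromosome 17 had 6.21% ± 3.20, higher by 3.93 points in 29 of 32 cells, and 22:9 had 0.401% ± 0.539, lower by 1.88 points in 27 (each with an adjusted p of 1e-05 over 2 pairs by sign-flip permutation). The highest frequency of any bin was 53.1% on chromosome 19, 81.2% on chromosome 17 and 15.6% on 22:9.

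The 19p12 cluster was also set against the bins within 5 Mb of the centromeres of other chromosomes. Those 1613 bins had a share of 18.9% ± 6.48 (1.36 to 26.8%, median 19.8%, n = 32), and 19p12 had 21.7% ± 20.6. The difference of 2.79 points ± 19.4 (SD), higher in 16 of 32 cells, did not pass (p = 0.421 by sign-flip permutation). In reads per bin and 100000 reads, not divided by the expectation, 19p12 was lower, at 1.34 against 2.02 (p = 0.00813 by the same test, higher in 7 of 32 cells).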

How the data were processed

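Per the labels' protocols, DNA of single sorted cells was cut with DpnI, adaptors were ligated and PCR used 21 extension steps. Reads were handled with cutadapt and Bowtie2 2.1.0 on hg19, per the submitters' processing notes. The authors deposited ratios of observed to expected reads (OE) per bin; how the expectation was made, reads filtered and duplicates handled is not given in the sources used here. Of 35 samples, 32 have a column that carries the number in their title, and the other 3 were not analysed here.

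Reads were recovered as the largest step per bin dividing all its values (tolerance 0.01 reads). This gives the fewest reads that fit, which is a single read wherever only a single cell had a value above 0. Reads after PCR are not independent molecules. Shares of bins in contact were compared within cells by two-sided sign-flip permutation tests (100000 resamples), with Benjamini-Hochberg adjustment over 4 clusters or 2 chromosome pairs. Bins were tested over the whole table by an exact two-sided Poisson-binomial test (the smaller tail doubled, threshold 0.05). Both tests and the read recovery were tried on simulated data. The simulated recovery had fewer cells and more reads per bin than most chromosome 19 bins. It therefore says little about bins with reads in few cells. The centromere was the longest stretch without values (24700001 to 27700000 on chromosome 19). On a single other chromosome, whose longest such stretch lay in the long arm, the stretch at the chromosome start was used. Regions named were the clusters, the flank, stretches of at least 20% contact frequency, called bins and the 5 longest never-contacted stretches; contacts away from the centromere and single cells were singled out after their values were seen. Members, windows and tests were chosen with earlier results of these data known. Analyses used Python 3.11.15, numpy 2.4.6 and pandas 2.3.3.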

Additional observations from a re-analysis of the deposited data

How the results depend on the processing

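Contact differences are in percentage points. On recomputing, 109 values changed neither sign nor call, or for counts of bins stayed within 1.5 times. Of the rest, 12 turned sign, 11 newly passed, 4 no longer passed and 5 counts of bins moved further. The difference of 19p12 from the bins outside the clusters kept both in every alternative that gave a value, from 10.7 to 32.1 points where contact shares were compared. Without bins of low expected reads 19p12 has no bins, and the 4 clusters together exceeded the other bins by only 0.402 (p = 0.666); without 19p12 this was 0.0122. The proximal 19q13.4 cluster turned to 1.24 with an OE limit of 0.5, 3.00 with any read, 0.791 with thinned reads, 0.135 without bins of low expected reads, 0.191 against bins away from the centromere, 0.0113 in mean OE and 0.0158 in reads per bin, none past the threshold, and newly passed at -0.143 with a limit of 2, -0.722 with shrunken clusters and -1.26 among bins of like expected reads. Where it newly passed, the cluster was at 0 in every cell, so no difference could be above 0. The distal cluster turned to -0.0131 with a limit of 2 and -0.132 without cell 26, neither past the threshold. The distal cluster turned and passed at -1.26 among bins of like expected reads (adjusted p = 2e-05 by sign-flip permutation), where it too was at 0 in every cell. In the other direction it passed at 8.47 with any read, 0.0341 in mean OE and 0.152 in reads per bin. The 19q13.1 cluster no longer passed at -0.416 with thinned reads and -0.0696 against bins away from the centromere. The clusters other than 19p12 newly passed at 1.74 with a limit of 0.5, 4.74 with any read, 1.37 with thinned reads, 0.0245 in mean OE and 0.0931 in reads per bin. The comparison of 19p12 with centromere flanks elsewhere turned to -0.873 with a limit of 2 and to -0.682 in reads per bin. Bins called above expectation numbered 11 with a limit of 0.5, 1 with 2, 3 with any read, 2 without the 8 sparsest cells and 9 without cell 26. Reads per bin, bins of like expected reads and leaving out cell 26 were chosen after seeing the data. No paired analysis was possible because the cells form 1 group, so no second group shares their numbers; the tests between regions are themselves paired within cells. In the 3 shallow cells 1 read makes a contact. With 32 cells, these 3 included, a bin without contact in any may still have one in up to about 9.38% of cells.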
